A study of Mus musculus with 6 samples.

Results

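Collagens are the main fibrous proteins of the extracellular matrix, and the genes described here encode collagen chains and the enzymes that modify them. Members were rows of the deposited expression table whose symbol alone named a collagen chain, a prolyl or lysyl hydroxylase or a lysyl oxidase. Where a symbol had several rows, the row with the highest mean signal was taken. This gave 55 genes of 21448 rows with signals, 41 of them collagen chains and 14 modifying enzymes.

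Collagen chains wind around each other into a helix inside the endoplasmic reticulum. Prolyl 4-hydroxylases stabilise that helix, prolyl 3-hydroxylases and lysyl hydroxylases prepare it for folding, glycosylation and crosslinking, and lysyl oxidases join the secreted molecules to each other. Fibrillar collagens carry tension, network collagens build basement membranes and similar sheets, and collagens with interrupted helices decorate fibrils. In tumours much of the fibrillar collagen is usually made by fibroblasts, and tumour cells can make collagens and lysyl oxidases too.

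By their labels the 6 arrays held RNA of Lewis lung carcinoma (LLC) material, LLC being a mouse lung tumour line. The control group had 3 samples and the anti-PD-1 group 3. The sample labels describe subcutaneous tumours grown from 1000000 cells in Matrigel, in mice dosed every 3 days with 250 µg of antibody. That antibody was directed at PD-1, a receptor that restrains T cells, or was an IgG2a isotype control. Control samples are labelled as without anti-PD-1 treatment, and the design text of the series instead describes cells that survived 7 days after treatment and untreated cells. Strain, sex and age of the mice were not given in the sources used here. Whether replicates are separate animals is not stated, so p-values measure no more than the scatter of these samples, which could be technical. In tumour tissue, fewer cells of a type and less RNA per cell cannot be told apart.

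Values were log2 signals, array medians lay between 7.71 and 7.77, and the number of arrays limits the precision. A positive difference means higher signal in the arrays labelled anti-PD-1. The authors' deposited table contradicts that direction, since in 99.6% of rows its average for 1 group follows from the signals of the other. Should those averages be named correctly, each rise given here is a fall. The headers refer to mouse (mm10), while symbols and transcript accessions are human, so gene names are those of the file. A human Ensembl transcript was listed in 19850 rows and a mouse one in 0. The species of the RNA was not tested and rests on the labels. Of the rows 1299 lie on chromosomes 20, 21 or 22, which mice lack, so the positions are not of a mouse build. Which human build they follow is unsettled.

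By sample label, collagen production genes were mostly higher where they differed. Of the 55 members 20 rose (36.4%) and 3 fell (5.45%) at an adjusted p of 0.05 in limma, while among all rows 14.7% rose and 15.1% fell, 29.8% in all. The rises were led by the collagens COL8A1, COL12A1 and COL1A2, at between 8.86-fold and 12.1-fold, and among the enzymes by LOX at 3.23-fold and P4HA2 at 3.01-fold. COL1A1, by a coding row that the selection rule did not take, was 12.7-fold higher. The falls were in COL13A1, PLOD3 and LOXL3. The median difference of the members was 0.20 on the log2 scale, against 0.01 for all rows.

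Among 41 collagens 10 rose and 1 fell, with a median difference of 0.12, and among 14 enzymes 10 rose and 2 fell, with a median of 0.45. The difference between these shares was not tested. Brightness moved with these counts. Of all rows above the median signal 48.0% passed in either direction, against 4.63% of rows below 5.08, the 25th percentile (2.86% higher and 1.77% lower). Among collagens 14 lay above the median and 18 below the 25th percentile, and 7 and 1 of these passed. The 7 of 14 is close to the share of bright rows in general, but all 7 were rises, where 22.8% of bright rows rose and 25.1% fell. None of the 14 enzymes (0 of 14) lay below the 25th percentile, and of 11 above the median 9 rose and 1 fell. Signals of different rows depend on their probes, and the part of brightness in these counts was not tested. Of the 55 members 23 had groups that did not overlap with anti-PD-1 higher and 4 with it lower, where the shares among all rows were 21.7% and 21.9%, or 43.5% in either direction.

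**Figure D1:**
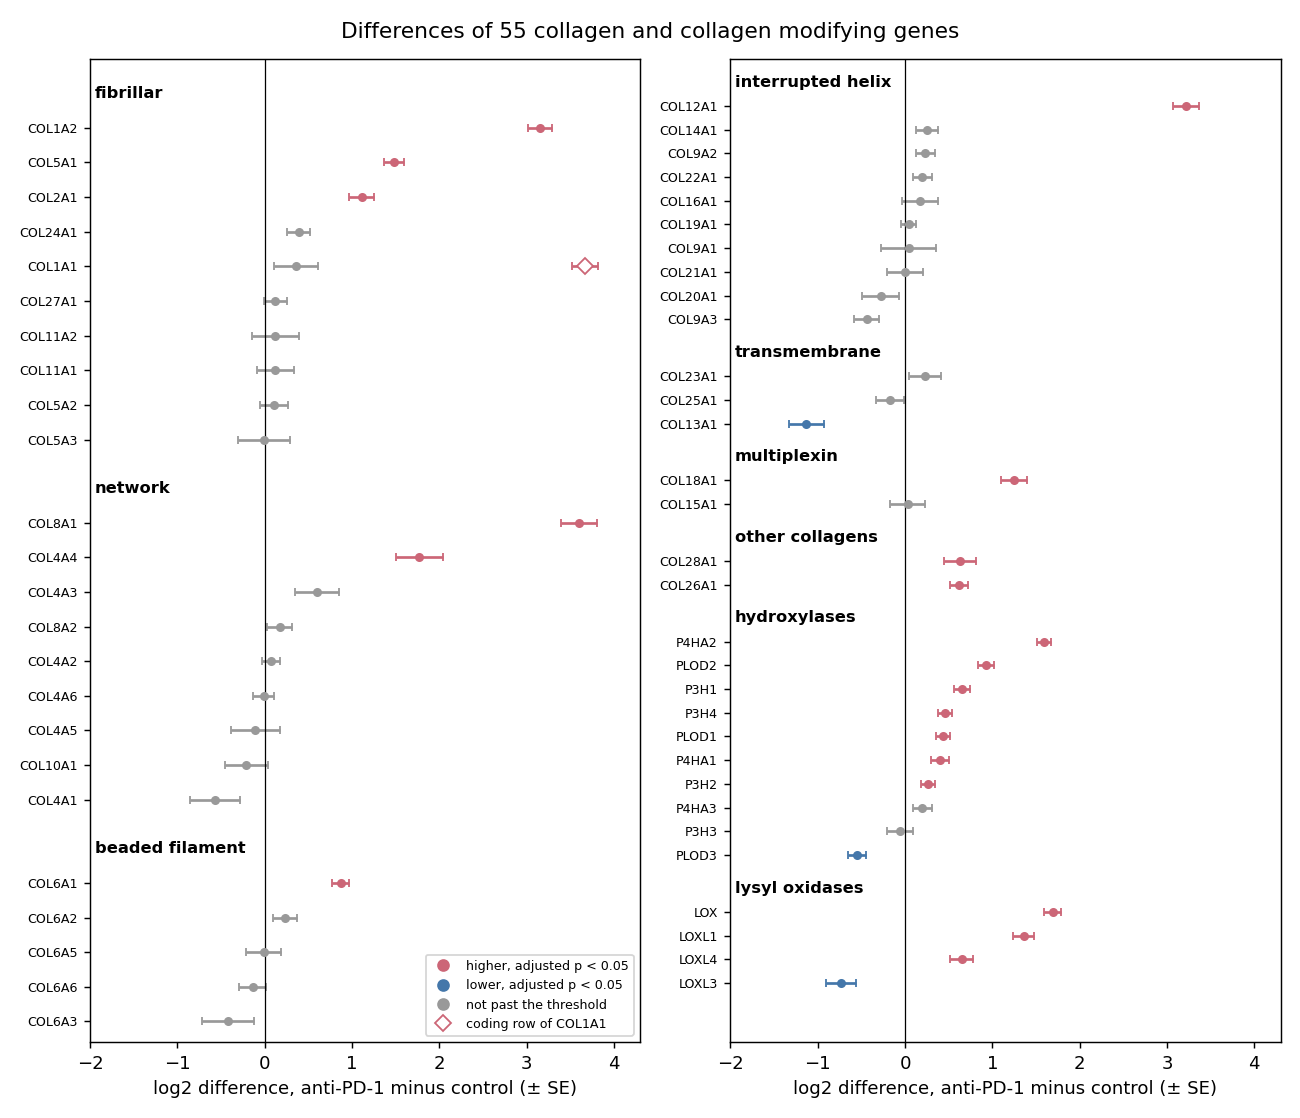
Log2 difference (anti-PD-1 minus control, x axis) with its standard error for each of the 55 members, in classes by type of molecule. Red points were higher and blue points lower past an adjusted p of 0.05, grey points did not pass, and the open diamond is the coding row of COL1A1, at 3.67, beside the row the selection rule took, at 0.36.

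Fibrillar collagens were measured in 10 members, of which 3 rose and 0 fell, where 14.7% and 15.1% of all rows did. COL1A2, the second chain of type I collagen, the main collagen of skin, bone and tendon, had control signals of 10.77, 10.27 and 10.58 and anti-PD-1 signals of 13.68, 13.66 and 13.72. All anti-PD-1 arrays lay far above all control arrays, a difference of 3.15 ± 0.14 (SE, n = 3 per group, adjusted p = 1.73e-05). It ranked 57 among the rises of all rows. COL5A1, a chain of type V collagen, which starts the assembly of type I fibrils, had control signals of 9.59, 9.93 and 9.77 and anti-PD-1 signals of 11.32, 11.22 and 11.18. It rose by 1.48 ± 0.11 (adjusted p = 1.26e-04). COL2A1, the collagen of cartilage, went from 7.62, 7.31 and 7.60 in control to 8.85, 8.53 and 8.49 in anti-PD-1 arrays, with no overlap. Its rise was 1.11 ± 0.14 (adjusted p = 0.00116).

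The other 7 fibrillar members did not pass, with differences from -0.01 to 0.39. COL24A1 stood nearest to the threshold at 0.39 ± 0.13 (adjusted p = 0.0602), with signals below the 25th percentile in both groups. The remaining type V chains, COL5A2 at 0.11 ± 0.16 and COL5A3 at -0.01 ± 0.30, had groups that overlapped. COL27A1 (0.12), COL11A1 (0.12) and COL11A2 (0.12) had overlapping groups as well.

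The result for COL1A1, the major chain of type I collagen, depended on which of its rows was read. The brighter row, which represents it here, is classed as non-coding in the file, carries a circular RNA identifier and lies on the opposite strand to the gene (chromosome 17, 50200287 to 50200367, 81 bases). Its signals were 11.47, 10.51 and 11.33 in control and 11.47, 11.35 and 11.57 in anti-PD-1 arrays, and the groups overlapped. The difference was 0.36 ± 0.25 (95% interval -0.22 to 0.94, adjusted p = 0.337). The other row carries the transcript accessions of the gene itself (chromosome 17, 50183289 to 50201639). There the control signals were 7.86, 8.43 and 8.32, and the anti-PD-1 signals were 11.88, 11.90 and 11.84. All anti-PD-1 arrays were higher, by 3.67 ± 0.15 (adjusted p = 1.64e-05), or 12.7-fold. With that row the members that rose numbered 21 and not 20, a choice made after the values were seen.

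COL1A2, COL6A2 and P4HA2 also had several rows, and for these the brightest row was the coding one. The further row of COL1A2 lies inside the gene on the opposite strand and had mean signals of 3.88 and 4.23, with a difference of 0.35 ± 0.29 (adjusted p = 0.446). A row of P4HA2 without a coding transcript stood at 4.72 and 4.59 (adjusted p = 0.794). For COL6A2, a chain of type VI collagen, 3 rows gave differences of 0.23, 0.60 and 0.22, and none of the 3 passed.

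**Figure D2:**
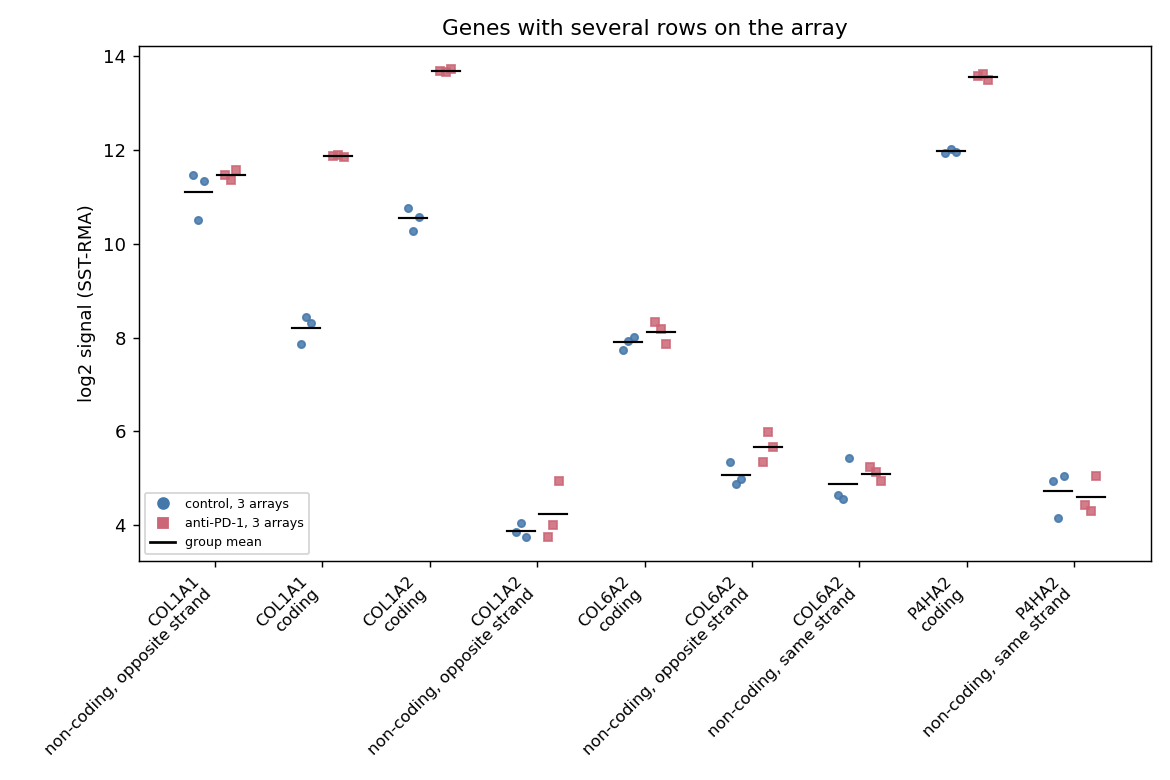
Log2 signal (y axis) of every row of the 4 genes with several rows, with control arrays as blue circles, anti-PD-1 arrays as red squares and group means as black lines. The groups were apart in the coding rows of COL1A1, COL1A2 and P4HA2, and overlapped in their non-coding rows.

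Network collagens included COL8A1, the largest rise among the rows that the rule chose, which the coding row of COL1A1 exceeded (3.67 against 3.60). COL8A1, a short-chain collagen of vessel walls and of the corneal endothelium's membrane, had control signals of 8.44, 7.77 and 8.22 and anti-PD-1 signals of 12.01, 11.75 and 11.47. The groups were far apart, at 3.60 ± 0.21 (adjusted p = 4.16e-05), rank 36 among the rises of all rows. COL4A4, a type IV chain of the kidney's filtration membrane, had control signals of 5.52, 4.58 and 4.50 and anti-PD-1 signals of 6.67, 6.45 and 6.79. It rose by 1.77 ± 0.27 (adjusted p = 0.00297), and control replicate 1 lay nearest to the anti-PD-1 arrays.

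Of 9 network members 2 thus rose, where 14.7% of all rows did, and the other 7 did not pass. COL4A3, which lies 5 bases from COL4A4 on the opposite strand by the file's positions (chromosome 2), had control signals of 4.81, 4.60 and 4.99. Its anti-PD-1 signals of 5.89, 5.42 and 4.88 reached into the control range, and the difference was 0.60 ± 0.25 (adjusted p = 0.126). COL4A2, a chain of the type IV collagen found in nearly all basement membranes, was at 8.09, 8.00 and 8.13 in control and 8.24, 8.19 and 8.00 in anti-PD-1 arrays. The difference of 0.07 ± 0.10 had a 95% interval from -0.16 to 0.30. COL4A5 (-0.11), COL4A6 (-0.01), COL8A2 (0.17) and COL10A1 (-0.21), the collagen of growth plate cartilage, were dim, with mean signals in each group of 5.23 or less.

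COL4A1, the partner of COL4A2, was the member whose deposited averages lay outside its signals. Its signals were 8.33, 8.98 and 8.90 in control and 7.94, 7.80 and 8.76 in anti-PD-1 arrays, while the authors' deposited table gave averages of 3.27 for C and 3.57 for P. The signals gave a difference of -0.57 ± 0.29 (adjusted p = 0.194), and -0.87 without anti-PD-1 replicate 3 (adjusted p = 0.0338), but no direction is drawn from this row. By the file's positions COL4A1 and COL4A2 overlap by 1346 bases on opposite strands of chromosome 13.

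Among 5 chains of type VI collagen, which forms beaded filaments around cells, 1 rose, where 14.7% of all rows did. COL6A1 had control signals of 11.06, 11.05 and 10.86 and anti-PD-1 signals of 11.93, 11.89 and 11.75, a rise of 0.87 ± 0.10 (adjusted p = 8.28e-04). Its groups did not overlap, but the change was under 2-fold. COL6A2 was at 7.74, 7.93 and 8.02 against 8.33, 8.18 and 7.86, with overlap and a difference of 0.23 ± 0.14 (adjusted p = 0.306). COL6A3, the large chain of the same molecule, had signals below the 25th percentile in both groups and a difference of -0.42 ± 0.30 (adjusted p = 0.35). COL6A5 and COL6A6 were equally dim, at -0.01 and -0.14.

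Of 10 collagens with interrupted helices 1 rose, where 14.7% of all rows did. COL12A1, which sits on the surface of type I fibrils, had control signals of 10.60, 10.52 and 10.05 and anti-PD-1 signals of 13.69, 13.55 and 13.60. The gap was 3.22 ± 0.15 (adjusted p = 2.30e-05), rank 48 among the rises of all rows. None of the other 9 (0 of 9) passed, at between -0.44 and 0.25, and 7 of them lay below the 25th percentile of signal. COL9A3, a chain of the cartilage collagen type IX, had a difference of -0.44 ± 0.14 (adjusted p = 0.0546). Its mean was 5.27 ± 0.22 in control and 4.83 ± 0.15 in anti-PD-1 arrays (SD, n = 3 each), and the groups did not overlap. COL20A1, the brightest of the 9, differed by -0.28 ± 0.21 (adjusted p = 0.388), and COL14A1, which like COL12A1 binds fibrils, by 0.25 ± 0.13 (adjusted p = 0.227).

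COL13A1, a collagen anchored in the cell membrane and needed at the nerve-muscle junction, was the collagen that fell. Its control signals of 5.04, 5.35 and 4.61 stood above anti-PD-1 signals of 4.10, 3.80 and 3.70. The difference was -1.13 ± 0.20 (adjusted p = 0.00569), and its mean over the 6 arrays lay below the 25th percentile. The other membrane collagens did not pass, COL23A1 at 0.23 ± 0.18 and COL25A1 at -0.17 ± 0.16.

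COL18A1, a basement membrane collagen and the source of the fragment endostatin, rose by 1.25 ± 0.15 (adjusted p = 9.75e-04). Control signals were 7.73, 8.16 and 7.96, and anti-PD-1 signals 9.12, 9.42 and 9.05, without overlap. COL15A1, its closest relative, was at 6.93 ± 0.29 and 6.96 ± 0.30 (SD, n = 3 each), a difference of 0.03 ± 0.20. COL26A1 rose by 0.62 ± 0.10 (adjusted p = 0.00402). COL28A1 rose by 0.63 ± 0.18 (adjusted p = 0.0401), a call that was lost on leaving out any 1 library except control replicate 3 (adjusted p from 0.0371 to 0.119).

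**Figure D3:**
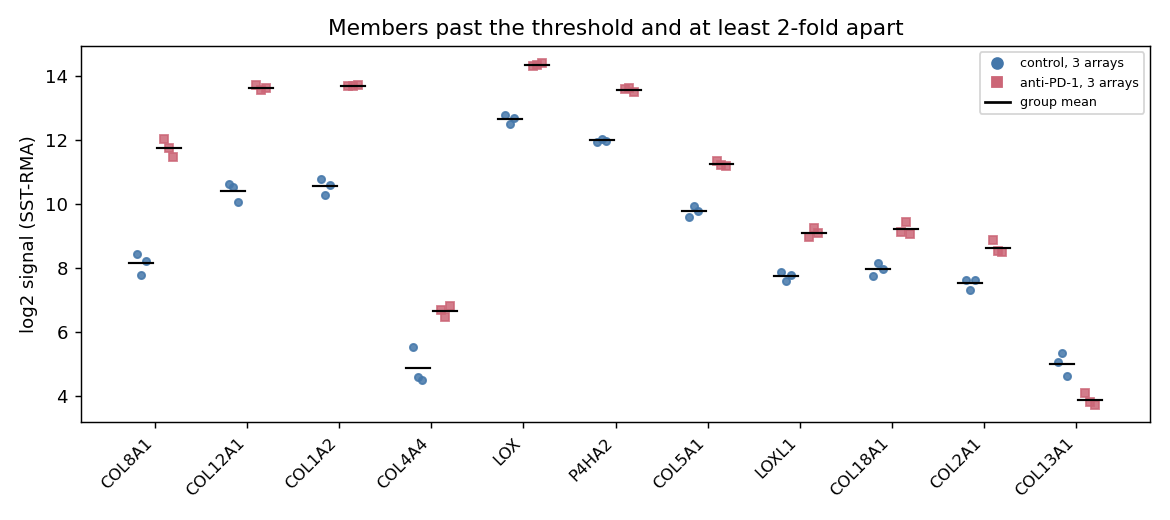
Log2 signal (y axis) on each array for the 11 members that passed the threshold with at least a 2-fold difference, with control arrays as blue circles, anti-PD-1 arrays as red squares and group means as black lines. In 10 of them all anti-PD-1 arrays were higher than all control arrays, and in COL13A1 all were lower.

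At least 2-fold differences past the threshold were found in 10 members that rose and 1 that fell, where 4.01% and 3.63% of all rows met these limits, 7.64% in either direction. Of the 10, 7 were collagens and 3 were enzymes.

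Some collagen genes share their row with another symbol and are outside the members. The row of COL3A1 and MIR3606, COL3A1 being the fibrillar collagen of elastic tissues, had control signals of 6.61, 6.42 and 6.77 and anti-PD-1 signals of 6.70, 6.74 and 7.13. The groups overlapped, at 0.26 ± 0.15 (adjusted p = 0.265). The row of COL7A1 and MIR711, COL7A1 being the anchoring fibril of skin, differed by 0.17 ± 0.14 (adjusted p = 0.437). That of COL17A1 and MIR936, COL17A1 being the hemidesmosomal collagen, was at 6.94, 7.91 and 7.88 in control and 9.47, 9.57 and 9.65 in anti-PD-1 arrays, higher by 1.99 ± 0.26 (adjusted p = 0.00139). The row of ENTPD4 and LOXL2, a lysyl oxidase, was higher by 0.49 ± 0.15 (adjusted p = 0.0472). A further row that lists COL4A3 after other symbols was higher by 0.73 ± 0.14 (adjusted p = 0.00777). That row is classed as non-coding and lies on the opposite strand to COL4A3. Which gene of such a row carries the signal cannot be told from it.

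Prolyl 4-hydroxylases make the hydroxyproline that holds the collagen helix together at body temperature, and their catalytic subunits are P4HA1, P4HA2 and P4HA3. P4HA2 had control signals of 11.94, 12.03 and 11.95 and anti-PD-1 signals of 13.58, 13.61 and 13.50. The spread within groups was small beside the rise of 1.59 ± 0.08 (adjusted p = 2.93e-05). P4HA1, at 12.35, 12.30 and 12.53 against 12.72, 12.84 and 12.82, rose by 0.40 ± 0.10 (adjusted p = 0.0205). That call was lost without control replicate 1 or 2 or anti-PD-1 replicate 2 or 3 (adjusted p up to 0.071). P4HA3 did not pass, at 0.20 ± 0.11 (adjusted p = 0.234).

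Prolyl 3-hydroxylases act on few positions of the chains. P3H1, which works in a complex with the chaperones CRTAP and PPIB, had control signals of 11.98, 11.88 and 12.03 and anti-PD-1 signals of 12.62, 12.67 and 12.54, a rise of 0.65 ± 0.09 (adjusted p = 0.00175). P3H4, a partner protein of the family without known hydroxylase activity, rose by 0.46 ± 0.08 (adjusted p = 0.00641). P3H2, which acts on type IV collagen, rose by 0.26 ± 0.08 (adjusted p = 0.0455) with tight groups, 14.96, 14.97 and 14.94 against 15.20, 15.20 and 15.24. This call was lost on leaving out any 1 of the 6 libraries (adjusted p from 0.0855 to 0.125). P3H3 differed by -0.06 ± 0.15 (adjusted p = 0.798).

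The 3 lysyl hydroxylases all passed, but not in 1 direction, where 29.8% of all rows passed and 48.0% of rows above the median signal. PLOD2, which hydroxylates the chain ends where crosslinks form, had control signals of 14.80, 14.97 and 14.92 and anti-PD-1 signals of 15.79, 15.84 and 15.86. It rose by 0.93 ± 0.09 (adjusted p = 3.11e-04), or 1.91-fold. PLOD1, which acts within the helix, went from 13.57, 13.59 and 13.49 to 14.05, 13.97 and 13.95, a rise of 0.44 ± 0.08 (adjusted p = 0.0073). PLOD3, which also transfers sugars to hydroxylysine, fell from 11.56, 11.72 and 11.80 to 11.21, 11.03 and 11.18. Its groups did not overlap, at -0.55 ± 0.10 (adjusted p = 0.0067).

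All 4 lysyl oxidases among the members passed, 3 of them higher, where 14.7% of all rows rose and 15.1% fell. LOX, which crosslinks collagen and elastin, had control signals of 12.78, 12.50 and 12.67 and anti-PD-1 signals of 14.31, 14.32 and 14.39. The rise was 1.69 ± 0.10 (adjusted p = 4.69e-05), or 3.23-fold. LOXL1, known for its role in elastic fibres, went from 7.86, 7.58 and 7.76 to 8.96, 9.23 and 9.08, a rise of 1.36 ± 0.12 (adjusted p = 2.04e-04). LOXL4 went from 6.24, 5.85 and 6.19 to 6.81, 6.80 and 6.63, a rise of 0.65 ± 0.13 (adjusted p = 0.00866). LOXL3 fell from 5.72, 6.37 and 5.90 to 5.14, 5.36 and 5.29, at -0.73 ± 0.17 (adjusted p = 0.0184). The groups of LOXL3 did not overlap, but the call was lost without anti-PD-1 replicate 1 or 3 (adjusted p up to 0.0626).

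The changes of chains that are built into the same molecule were set side by side. For each of 9 pairs the log2 signals of the chains were subtracted within each array and compared between groups by an exact 2-sided permutation test, which with 3 arrays a group cannot give a p below 0.1. After adjustment over the 9 pairs the smallest p was 0.18, so no pair passed and none could have. In type VIII collagen COL8A1 rose by 3.60 while COL8A2, which was dim, stood at 0.17, and the difference of the changes was -3.43 ± 0.23 (SE). In type V the difference between COL5A2 and COL5A1 was -1.36 ± 0.22, and in type VI that between COL6A2 and COL6A1 was -0.64 ± 0.16. In these pairs the groups did not overlap (exact p = 0.1 each). COL4A4 exceeded COL4A3 by 1.17 ± 0.49 more in anti-PD-1 arrays, also without overlap (exact p = 0.1).

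The type I pair turned with the row used for COL1A1. COL1A2 against the non-coding row of COL1A1 gave a difference of the changes of 2.79 ± 0.17, with no overlap of groups (exact p = 0.1). Against the coding row it was -0.52 ± 0.31, with overlap (exact p = 0.2). By the coding rows the chains of type I collagen were thus 12.7-fold and 8.86-fold higher in anti-PD-1 arrays. Pairs in types IX and XI and the pair COL4A5 and COL4A6 differed by between 0.00 and 0.20, less than their standard errors of 0.31 to 0.52. The pair with the row in conflict, COL4A1 and COL4A2, gave 0.64 ± 0.43 (exact p = 0.2).

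**Figure D4:**
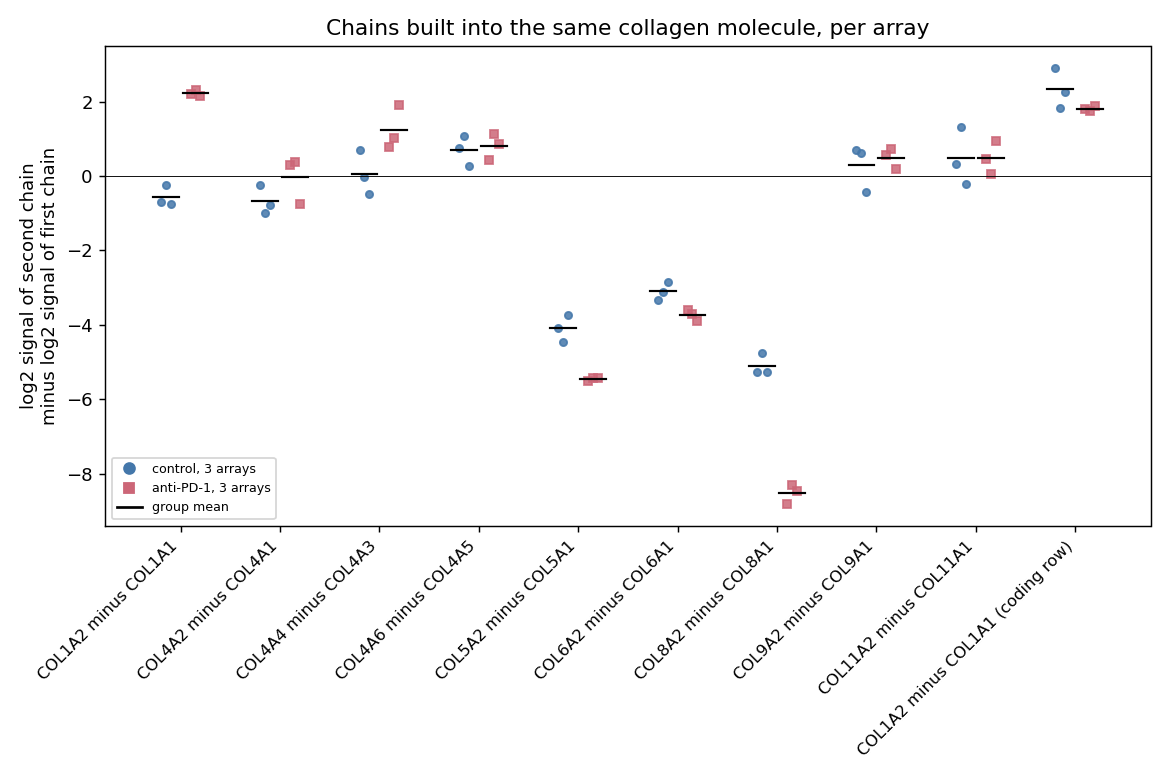
Log2 signal of the second chain minus that of the first on each array (y axis) for 9 pairs of chains, and for type I collagen also with the coding row of COL1A1. Blue circles are control arrays, red squares anti-PD-1 arrays and black lines group means; the level of a pair depends on its probes, and the gap between the groups is the difference of the changes.

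Genes outside the members that serve collagen were described by lists, each gene by its brightest row that is not classed as non-coding. The counts are to be read against 14.7% of all rows that rose and 15.1% that fell, or 22.8% and 25.1% of rows above the median signal, and the list medians against 0.01 for all rows. Of 17 genes for collagen folding and export, 16 of them above the median signal, 6 rose (35.3%) and 1 fell (5.88%), with a median difference of 0.21. FKBP7, a prolyl isomerase of the endoplasmic reticulum, rose from 8.61 ± 0.09 to 10.14 ± 0.09 (SD, n = 3 each), by 1.53 ± 0.09 (adjusted p = 5.20e-05). SERPINH1, the collagen chaperone HSP47, rose by 0.67 ± 0.10 (adjusted p = 0.00277), and SEC23A, SEC24D and MIA3, which carry procollagen out of the endoplasmic reticulum, by 0.40, 0.49 and 0.45. The partners of P3H1 did not pass, CRTAP at 0.01 and PPIB at 0.03, nor did P4HB, the shared subunit of the prolyl 4-hydroxylases, at 0.15 (adjusted p = 0.248). TMEM38B, an ion channel of the endoplasmic reticulum, fell by 0.32 (adjusted p = 0.0468).

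Among 9 genes for procollagen processing and crosslinking cofactors 4 rose (44.4%) and 1 fell (11.1%), where 14.7% and 15.1% of all rows did, and the median difference was 0.38. BMP1, the protease that removes the C-terminal propeptide and activates LOX, rose from 10.84 ± 0.11 to 12.69 ± 0.07, by 1.85 ± 0.10 (adjusted p = 2.85e-05). ADAMTS2 and ADAMTS14, which remove the N-terminal propeptide, rose by 0.94 and 0.81, and ATP7A, the pump that supplies LOX with copper, by 0.73. PCOLCE2, an enhancer of BMP1, fell, at -0.44 ± 0.11 (adjusted p = 0.0238).

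Of 8 collagen receptors 2 rose and 2 fell (25% each), against 14.7% and 15.1% of all rows, with a median difference of 0.09. Of the 8, 3 lay above the median signal and 2 below the 25th percentile. Among the 3 above the median 1 rose and 2 fell, where 22.8% and 25.1% of such rows did. DDR2, a receptor kinase for fibrillar collagen, rose by 1.59 ± 0.13 (adjusted p = 1.82e-04), and MRC2, which takes collagen up for degradation, by 0.82 ± 0.09. The integrin chains ITGA2 and ITGB1, which form a collagen receptor together, fell, at -0.88 ± 0.13 (adjusted p = 0.00222) and -0.52 ± 0.08 (adjusted p = 0.00325). Of 7 genes for collagen degradation 1 rose (14.3%) and 3 fell (42.9%), where 14.7% and 15.1% of all rows did, and the median difference was -0.14. The collagenases MMP13, at -3.28 ± 0.14 (adjusted p = 1.75e-05), and MMP1, at -1.67 ± 0.10 (adjusted p = 5.50e-05), fell, as did MMP2, at -0.60. MMP14, a membrane-bound collagenase, rose by 1.04 ± 0.09. Among 19 matrix proteins that accompany fibrils 5 rose (26.3%) and 0 fell, against the same 14.7% and 15.1%, with a median difference of 0.21. Of the 19, 7 lay below the 25th percentile of signal, where 4.63% of rows passed. The rises were led by SPARC (1.75), which binds collagen, THBS1 (1.58) and FBN1 (1.41), the protein of microfibrils. FN1, whose row is among those in conflict with their averages, did not pass.

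Markers of the cell types that a tumour could hold were also read, against the same 14.7% of all rows that rose and 15.1% that fell. Of 11 fibroblast markers 7 lay below the 25th percentile and 0 above the median. Among the 11, PDGFRA (5.12 and 5.33 in control and anti-PD-1 arrays), DCN (5.72 and 5.74) and FAP (4.41 and 3.83) did not pass. LUM (4.60 and 5.52) did not pass either, with groups that did not overlap and a difference of 0.92 ± 0.33 (adjusted p = 0.0769). In the same list PDGFRB rose by 1.26 and MFAP5 by 0.64. The summed log2 signals of the 11 markers ran from 50.3 to 52.7 on control and from 53.3 to 55.3 on anti-PD-1 arrays. The median difference of the 11 was 0.07, and the largest differences were those of PDGFRB, LUM and MFAP5. Of 8 pericyte and smooth muscle markers 2 rose, ACTG2 by 2.32 and DES by 1.01, while the median difference of the 8 was 0.18. Their sums, which include ACTG2 and DES, ran from 48.7 to 49.8 on control and from 52.6 to 53.7 on anti-PD-1 arrays. RGS5 (8.24 and 8.35) and MYH11 (5.49 and 5.26) were among the 6 of this list that did not pass. Sums of the 8 endothelial markers overlapped (42.8 to 44.4 and 43.8 to 44.9), 0 of 8 passed, and 4 of 8 lay below the 25th percentile, PECAM1 and CDH5 among them.

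The part of these cell types in the collagen differences was not tested. Of 10 macrophage markers 1 passed, CD68, which fell, at -1.64, while the median difference of the 10 was 0.02. Their sums, which include CD68, ran from 64.2 to 65.3 on control and from 62.8 to 63.3 on anti-PD-1 arrays. Among 6 T cell markers 5 lay below the 25th percentile. CD4, itself among these dim rows with a mean signal of 4.76 over the 6 arrays, fell, at -0.46. The other 5 T cell markers did not pass, and the median difference of the 6 was 0.07. Their sums overlapped, from 25.2 to 26.2 on control and from 25.4 to 26.0 on anti-PD-1 arrays. Of 6 cartilage markers, listed because COL2A1 rose, 4 lay below the 25th percentile. ACAN, the main cartilage proteoglycan, was at 3.62 and 3.48, and SOX9, a cartilage regulator that is also made by epithelia, fell from 12.10 to 11.66. HAPLN1 (0.51, groups not overlapping), MATN3 (0.33), MATN1 (0.15) and CHAD (0.06) had positive differences that did not pass. The median difference of the 6 cartilage markers was 0.11. Of 5 epithelial markers 4 lay above the median, where KRT8 rose from 16.17 to 16.47 and EPCAM fell from 15.30 to 14.70. The remaining marker, CDH1, was at 5.86 and 5.02, with groups that did not overlap, and did not pass (adjusted p = 0.0775). Its row is among those in conflict with their averages.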

How the data were processed

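Signals were deposited on the log2 scale, summarised per gene by SST-RMA according to the file headers. Transcriptome Analysis Console appears in the submitters' processing notes without a version. The authors' deposited table also held log2 group averages and SDs, a signed fold change treated as a score and not used, and p-values with false discovery rates, of which 23 members lay under 0.05, the same 23 that passed here. Of 22206 identifiers 758 had no signals. In 111 rows averages or SDs departed from the signals by over 0.05 and 0.02, the tolerances set.

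A model with group alone was fitted to the 6 libraries by lmFit and eBayes (limma 3.58.1, R 4.3.3). Its 2-sided p-values were adjusted over 21448 rows by Benjamini and Hochberg, with a threshold of 0.05. The fit was tested on simulated data with 200 rows changed, 50 at each fold. It recovered 0 of 50 at 1.25-fold, 11 at 1.5-fold, 34 at 2-fold and 48 at 4-fold, with 2 false calls. Small differences could thus be missed. Far more rows passed in the real data than were changed there, so these shares need not hold for them. Errors of differences are limma standard errors, except for pairs of chains, where they come from the arrays. Exact permutation tests used scipy 1.17.1. Members and lists were chosen with earlier results of these data known. Every member past the threshold was named, with per-array signals for those at least 2-fold apart, together with major chains and enzymes, the brightest member of each class that did not pass, and genes with several rows; some other members were named after their values were seen. The closing section gives the effect of the alternatives. Deviations from group means in same-numbered libraries were uncorrelated (0.013, -0.024 and 0.013). The signals thus showed no pairing by number, though they cannot exclude one. No sequences are printed, since the symbols are human and the reference used here was mouse.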

Additional observations from a re-analysis of the deposited data

How the results depend on the processing

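The fit was repeated with median centring, quantile normalization, dim rows filtered out, a trended robust prior, array weights, a replicate block, removal of each library, 1 row per symbol, the row of lowest mean, the workbook's equal signals, omission of rows in conflict, and other thresholds; the choice of coding rows was added after seeing the data. Of 51 counts 48 stayed within 1.5 times. Without rows under the median signal 1 member was lower, as COL13A1 and LOXL3 are then not tested. An adjusted p of 0.01 gave 3870 rows, and a 1.5-fold limit 18 members, both by construction. Without each library in turn 17 to 19 members rose, 2 to 3 fell, 10 to 11 were 2-fold apart and 4901 to 5452 rows passed. The replicate block, which takes the numbers as pairs though no pairing is stated, lost the call for P3H2 (0.26, adjusted p = 0.114) and no other named gene's. The calls for P3H2 and COL28A1 were lost with quantile normalization (adjusted p = 0.0718 and 0.0577) and with median centring (adjusted p = 0.0894 and 0.0531). COL15A1 turned to -0.02 with both, and ranged from -0.13 to 0.19 without each library; P3H3 ranged from -0.15 to 0.08; neither passed in any of these, and the cause was not tested. The row of lowest mean gave -0.13 for P4HA2, 0.35 for COL1A2 and 3.67 for COL1A1, being other rows. The difference of changes in type I collagen was -0.52 with the coding row of COL1A1; the one for COL4A5 and COL4A6 ranged from -0.11 to 0.30, that for COL9A1 and COL9A2 from -0.16 to 0.39, and that for COL11A1 and COL11A2 from -0.34 to 0.43, without each library. Signals with 2 decimals and 3 arrays a group limit small differences in dim rows.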
